A study of Mus musculus with 63 samples.

Results

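Expression was compared in 12 of the 63 arrays of the series, those labelled from 100 ng of RNA whose lymphoma number starts with 8. Of these, 9 were labelled CTX 4h and came from lymphomas 8127, 8733, 8762, 8765, 8766, 8768, 8771, 8772 and 8775. The other arrays of the 12 were 3 labelled native, from lymphomas 8731, 8767 and 8773. The CTX 4h mice carried a lymphoma and received a single intraperitoneal dose of 300 mg/kg cyclophosphamide (CTX), and lymph nodes were taken 4 h later. Native lymphomas received no drug according to the treatment label. All 12 samples share the strain C57BL/6, the genotype Emu-myc transgenic and lymph nodes as the source of the cells. Emu-myc is a Myc transgene under the immunoglobulin heavy-chain enhancer, which drives it in B-lineage cells from the precursor stage on.

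Several limits come from the labels. Treatment rests on the label of each array, since the overall description mentions therapy-naive material alone. The protocol describes transplantation into recipient mice with an intact immune system, and it does not settle whether native samples came from such recipients or from the transgenic donors. No cells were purified, so host cells of the node contributed RNA. Each lymphoma number occurs on 1 array, nothing pairs a treated with an untreated lymphoma, and separate mice are not stated. The p-values therefore measure the spread between these samples.

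Cyclophosphamide is a prodrug. Liver enzymes activate it to a mustard that crosslinks the strands of DNA, and its breakdown also releases acrolein, a reactive aldehyde. DNA crosslinks engage the ATR and ATM kinases, which stabilise p53, block entry into mitosis and, in Emu-myc lymphomas, can end in apoptosis through p53 and the BH3-only proteins. Aldehydes and oxidants engage NRF2, and free zinc engages MTF1, which binds metal response elements in the metallothionein promoters.

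Median log2 values per array were 6.73 to 6.84, and each array had a mean correlation of 0.973 (lymphoma 8762) to 0.98 with the other 11. The B-cell gene Cd79a and Myc were high in both groups, and the share of lymphoma cells was not measured. The B-cell receptor component gene Cd79a read 11.44 to 12.16 in CTX 4h arrays and 11.56 to 12.24 in native arrays (log2). Myc read 12.73, 13 and 13.22 (lowest, median and highest) in CTX 4h arrays, against 13.05, 12.93 and 13.12 in native arrays. Some arrays stood apart in ways that touch the results below. CTX 4h arrays 8762, 8765, 8768 and 8772 carried high levels of salivary gland genes, and CTX 4h array 8775 had the lowest mitosis score and the highest macrophage and adipocyte scores of the 12. Fewer cells of a type and less RNA per cell cannot be told apart in these bulk samples.

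The question was how lymphomas 4 h after the drug differed from untreated ones among the 100 ng arrays of this number series. Mt2, Hmox1, Zbtb16 and Snora20 were among the genes that were higher in every CTX 4h array than in any native array, and Rnf5, Mettl3 and Plk1 among those that were lower. No gene passed the test. Of 19938 genes, 0 (0%) had an adjusted p under 0.05 in either direction (limma on log2 values, Benjamini-Hochberg), and the smallest adjusted p was 0.154. Without adjustment 1157 genes had a limma p under 0.05, of which 372 (1.87% of all) were higher and 785 (3.94%) lower in CTX 4h. The differences below are thus described by their size, their standard error (SE) and by whether the groups overlap. Every CTX 4h array lay above every native array for 79 genes (0.396% of all) and below every native array for 189 genes (0.948%). With only 3 native arrays some genes separate the groups by chance, and how many do so was not tested. A lack of overlap is therefore a description and not a test. The 79 became 88 to 303 and the 189 became 210 to 558 when 1 array was left out, with 303 and 558 without native array 8767, 296 and 523 without native array 8731, 274 and 378 without native array 8773, and 149 and 333 without CTX 4h array 8772. Without CTX 4h array 8127 the higher count was 131. The median log2 fold change over all genes was -0.01, and 46.5% of genes had a positive one. The shares over all genes are the background for the list counts below. A log2 fold change here is the CTX 4h mean minus the native mean.

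Metallothioneins are small cysteine-rich proteins that bind zinc, copper and electrophiles. Mt2 read 11.42, 12.01 and 12.61 (lowest, median and highest of 9) in CTX 4h arrays, against 10.69, 10.66 and 10.42 in native arrays. All treated lymphomas lay above all native ones. The means were 12.03 ± 0.40 in CTX 4h (SD, n = 9) and 10.59 ± 0.15 in native (SD, n = 3), a difference of 1.44 ± 0.22 (SE, adjusted p = 0.154, limma). Mt1 read 10.62, 11.44 and 12.10 in CTX 4h arrays, against 10.46, 11.03 and 9.60 in native arrays. Array 8765, at 10.62, overlapped with native array 8767, and the other 8 treated arrays lay above all native ones. The difference of Mt1 was 1.12 ± 0.31 (SE, adjusted p = 0.482, limma). Slc30a1 encodes ZnT1, which exports zinc across the plasma membrane. It read 8.34, 8.66 and 8.83 in CTX 4h arrays, against 8.07, 7.40 and 7.97 in native arrays, with no overlap and a difference of 0.78 ± 0.15 (SE, adjusted p = 0.302, limma).

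Mt2, Mt1 and Slc30a1 are the textbook targets of MTF1, and their promoters are shown because metal response element cores lie in each of them. The sequences are RefSeq windows of GRCm38.p6 from 250 bases before to 50 after the gene start, written 5′ to 3′ along the gene. Capitals mark the core TGCACNC or TGCGCNC on either strand, where N is any base.
Mt2, chr8:94172368-94172667, plus strand: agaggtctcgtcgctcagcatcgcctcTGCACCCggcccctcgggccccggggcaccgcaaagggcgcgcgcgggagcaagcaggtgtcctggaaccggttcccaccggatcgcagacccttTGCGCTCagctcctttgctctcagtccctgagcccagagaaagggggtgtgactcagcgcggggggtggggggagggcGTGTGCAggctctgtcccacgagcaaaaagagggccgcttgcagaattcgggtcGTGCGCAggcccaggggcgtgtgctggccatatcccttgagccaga
Mt1, chr8:94178839-94179138, plus strand: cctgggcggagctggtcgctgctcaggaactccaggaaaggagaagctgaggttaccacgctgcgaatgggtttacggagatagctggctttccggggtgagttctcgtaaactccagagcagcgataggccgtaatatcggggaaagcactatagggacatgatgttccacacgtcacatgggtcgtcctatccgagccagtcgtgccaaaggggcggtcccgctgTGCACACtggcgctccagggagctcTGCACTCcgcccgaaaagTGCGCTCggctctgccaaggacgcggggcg
Slc30a1, chr1:191906531-191906830, plus strand: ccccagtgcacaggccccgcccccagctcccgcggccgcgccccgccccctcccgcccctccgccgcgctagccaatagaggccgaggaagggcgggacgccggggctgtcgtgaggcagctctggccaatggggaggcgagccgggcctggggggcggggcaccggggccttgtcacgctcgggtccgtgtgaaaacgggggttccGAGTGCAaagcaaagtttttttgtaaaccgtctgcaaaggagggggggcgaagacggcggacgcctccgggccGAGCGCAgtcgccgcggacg

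The window of Mt2 held 4 core matches, that of Mt1 3 and that of Slc30a1 2. Of 27025 RefSeq genes with a window of this length, 28.2% held at least 1 match, 2.27% at least 3 and 0.588% at least 4. Of the 11 genes of the metallothionein and zinc list, 9 had a window and 7 of these held a match. Slc30a10 held 3 matches, as many as Mt1, and Mt3 and Mt4 held 1 each. Slc39a8 held 1 in 1 of its windows. The genes of that list other than Mt2, Mt1 and Slc30a1 had smaller differences or negative ones. Slc39a8, which imports zinc, differed by 0.44 ± 0.21 (SE). Mt3, the neuronal metallothionein, differed by 0.01, Mtf1 by -0.09 and the zinc importer gene Slc39a10 by -0.64. In all, 7 of the 11 were higher and 4 lower, against 46.5% of all genes higher, and the list's median was 0.05. Of the 11, 2 separated the groups upward, against 0.396% of all genes.

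**Figure D1:**
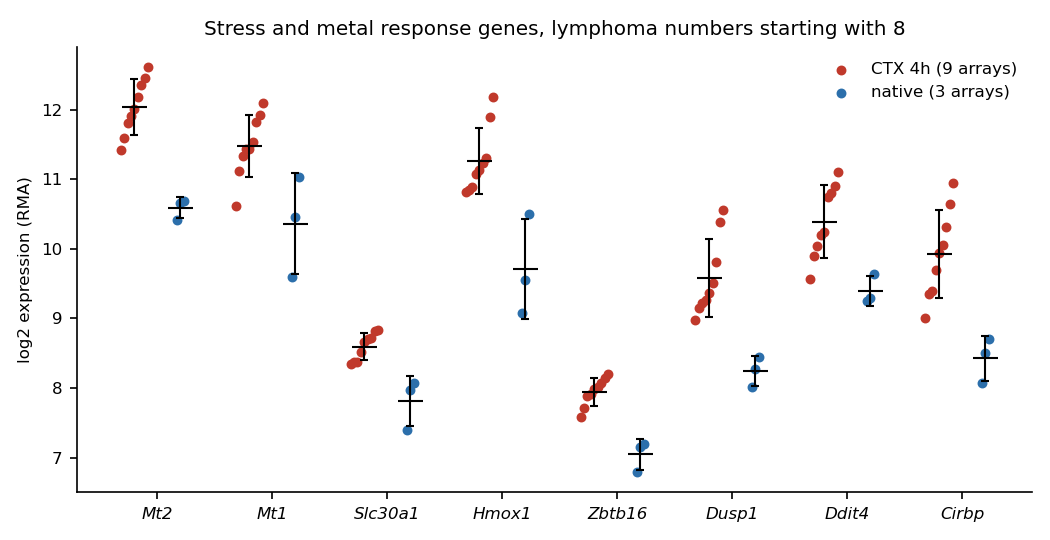
Log2 expression of 8 genes in the 9 CTX 4h arrays (red, left of each pair) and the 3 native arrays (blue). Each point is an array, and black bars give the mean and SD. All red points lie above all blue ones for Mt2, Slc30a1, Hmox1, Zbtb16, Dusp1 and Cirbp, while 1 treated array of Mt1 and 1 of Ddit4 overlap with native arrays.

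Hmox1 encodes the inducible heme oxygenase, which degrades heme to biliverdin, carbon monoxide and iron. It read 10.81, 11.14 and 12.18 in CTX 4h arrays, against 10.50, 9.08 and 9.55 in native arrays. The groups did not overlap, although native array 8731 lay close to the lowest treated one. The means were 11.27 ± 0.48 in CTX 4h (SD, n = 9) and 9.71 ± 0.72 in native (SD, n = 3), a difference of 1.56 ± 0.32 (SE, adjusted p = 0.321, limma). Hmox1 is a target of NRF2 and of the heme sensor BACH1, and other NRF2 targets differed less. Srxn1, the sulfiredoxin that reactivates oxidised peroxiredoxins, read 6.99, 7.23 and 7.86 in CTX 4h arrays, against 7.04, 6.65 and 6.67 in native arrays, a difference of 0.54 ± 0.17 (SE). Glutathione reductase, Gsr, differed by 0.48 ± 0.17 (SE), with 5 of 9 treated arrays above all native ones. The quinone reductase gene Nqo1 differed by 0.14, the thioredoxin reductase gene Txnrd1 by 0.12 and the glutathione synthesis genes Gclc and Gclm by 0.19 and -0.02. Of the 16 measured genes of the oxidative stress list, 13 were higher and 3 lower, with a median of 0.11, and Hmox1 alone separated the groups. Over all genes 46.5% were higher and 0.396% separated the groups upward. The letters TGACNNNGC, the core of the antioxidant response element, occurred in 5 of the list's 13 windows, against 14% of all genes.

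Glucocorticoid-induced genes formed the list with the largest positive median, 0.58 over 16 genes, of which 14 were higher and 2 lower. These are genes whose promoters or enhancers bind the ligand-activated glucocorticoid receptor. Zbtb16, which encodes the transcription factor PLZF, had the smallest p of all genes tested. It read 7.58, 7.98 and 8.20 in CTX 4h arrays, against 7.20, 7.15 and 6.79 in native arrays. The groups did not overlap, and the difference was 0.90 ± 0.13 (SE, adjusted p = 0.154, limma). Dusp1, a phosphatase that switches off MAP kinases, read 8.98, 9.36 and 10.56 in CTX 4h arrays, against 8.27, 8.44 and 8.02 in native arrays. Its difference was 1.34 ± 0.30 (SE, adjusted p = 0.36, limma), again without overlap. Ddit4 encodes REDD1, an inhibitor of the growth kinase complex mTORC1. It read 9.56, 10.24 and 11.11 in CTX 4h arrays, against 9.29, 9.64 and 9.25 in native arrays, a difference of 0.99 ± 0.29 (SE), and treated array 8766 lay below native array 8767.

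Errfi1, a feedback inhibitor of the EGF receptor, read 9.09, 9.69 and 10.05 in CTX 4h arrays, against 9.27, 8.23 and 8.27 in native arrays, a difference of 0.97 ± 0.23 (SE). Tsc22d3, which encodes the anti-inflammatory leucine zipper protein GILZ, differed by 0.60 ± 0.25 (SE). The receptor cochaperone gene Fkbp5 differed by 0.62 ± 0.37 (SE) and Klf9 by 0.46 ± 0.23 (SE). The score of the list, which is the mean over members after centring each gene on the 12 arrays, ran between -0.10 and 0.35 in CTX 4h arrays and between -0.66 and -0.35 in native arrays. All 9 treated scores lay above the 3 native ones. Mt2 is a member of both this list and the metallothionein list, and Dusp1 of both this list and the immediate early list, so these lists are not separate evidence. Without the 4 salivary arrays the median was 0.51, and without array 8775 it was 0.57.

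Immediate early genes are transcribed within minutes of a stimulus without new protein synthesis. Of the 27 in the list, 25 were higher and 2 lower, with a median of 0.27, and all 9 treated scores lay above all native scores. The margin was narrow, with the lowest treated score at -0.15 and the highest native one at -0.18. Beside Dusp1, the genes Ier3 and Fosb separated the groups, where 0.396% of all genes did so upward. Ier3, a short-lived regulator of survival, read 6.91, 7.09 and 7.43 in CTX 4h arrays, against 6.83, 6.60 and 6.82 in native arrays. The AP-1 subunit gene Fosb read 6.91, 7.09 and 7.43 in CTX 4h arrays, against 6.87, 6.74 and 6.88 in native arrays. Their differences, 0.38 ± 0.13 and 0.32 ± 0.12 (SE), were small. Fos differed by 0.40 ± 0.15 (SE), with array 8766 at 6.35 in the native range. Jun, the partner of Fos, read 7.92, 8.71 and 9.46 in CTX 4h arrays, against 8.22, 7.37 and 8.73 in native arrays, and its 0.55 ± 0.33 (SE) came with wide overlap. The cyclic AMP response element TGACGTCA stood in 2 of 23 windows of the list, against 2.03% of all genes.

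The transcription factor p53 is the main route from DNA damage to arrest and death in this model. Of its 37 measured target genes, 31 were higher and 6 lower, with a median of 0.20, and Ercc5 alone separated the groups. Over all genes 46.5% were higher and 0.396% separated the groups upward. Ercc5, which encodes the repair nuclease XPG, read 8.42, 8.65 and 9.14 in CTX 4h arrays, against 8.39, 7.90 and 8.23 in native arrays, a difference of 0.51 ± 0.16 (SE). The kinase gene Plk2 read 7, 7.61 and 8.43 in CTX 4h arrays, against 6.03, 7.02 and 6.95 in native arrays, and differed by 0.91 ± 0.30 (SE). Sestrins restrain mTORC1. Sesn1 differed by 0.71 ± 0.33 (SE) and Sesn2 by 0.70 ± 0.40 (SE), the second with 4 of 9 treated arrays above all native ones. The list's score lay above all native scores in 6 of 9 treated arrays. The p53 target genes Mdm2 and Ccng1 had overlapping groups. Mdm2, the ubiquitin ligase that degrades p53, read 9.21, 9.46 and 9.98 in CTX 4h arrays, against 9.27, 9.03 and 9.47 in native arrays (0.25 ± 0.15, SE). Ccng1 read 10.79, 11.54 and 12.06 in CTX 4h arrays, against 11.78, 11.14 and 11.01 in native arrays (0.15 ± 0.25, SE). The decamer of the p53 response element occurred in 11 of 29 windows of the list, against 9.55% of all genes.

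The route to apoptosis was uneven. Bcl2l11, which encodes the BH3-only protein BIM, read 9, 9.51 and 10.53 in CTX 4h arrays, against 9.34, 8.64 and 8.36 in native arrays. Its difference was 0.81 ± 0.29 (SE, adjusted p = 0.687, limma), and 7 of 9 treated arrays lay above all native ones. Bmf, another BH3-only gene, differed by 0.48 ± 0.22 (SE). The p53-induced BH3-only genes Pmaip1 (NOXA) and Bbc3 (PUMA) differed by 0.41 ± 0.28 and 0.24 ± 0.26 (SE) with overlapping groups. The survival gene Bcl2 differed by -0.60 ± 0.36 (SE), between 7.87 and 9.75 in CTX 4h arrays and between 8.96 and 10.17 in native arrays. Of 20 BCL2-family and caspase genes, 11 were higher and 9 lower, the median was 0.03, and none separated the groups.

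Cdkn2a, which encodes INK4A and ARF and is often lost in Emu-myc lymphomas, split both groups. It read 9.68, 9.91 and 9.92 in treated lymphomas 8733, 8762 and 8772, and between 6.85 and 7.56 in the other 6 treated ones. Native lymphoma 8773 read 10.01, against 7.42 and 7.33 in the native lymphomas 8731 and 8767. The difference was -0.16 ± 0.80 (SE).

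Genes of G2 and mitosis were lower in CTX 4h without exception among the 29 measured, with a median of -0.46. Of these, 9 had an unadjusted limma p under 0.05, and 7 lay in every treated array below every native one, namely Plk1, Aurka, Kif2c, Tpx2, Cenpe, Kif23 and Ccnf. Of all genes, 3.94% were lower with such a p and 0.948% separated the groups downward. Plk1, the kinase that drives mitotic entry and spindle assembly, read 8.48, 10.14 and 10.84 in CTX 4h arrays, against 10.87, 11.19 and 11.22 in native arrays. The highest treated lymphoma, 8766, came close to the lowest native one, and the difference was -1.03 ± 0.38 (SE, adjusted p = 0.72, limma). Aurka, the centrosomal Aurora kinase, read 7.22, 8.52 and 9.12 in CTX 4h arrays, against 9.20, 9.54 and 9.55 in native arrays, a difference of -1 ± 0.32 (SE, adjusted p = 0.626, limma). Its spindle activator gene Tpx2 read 7.55, 9 and 9.23 in CTX 4h arrays, against 9.55, 9.64 and 9.82 in native arrays (-0.89 ± 0.30, SE). The cyclin F gene Ccnf read 8.5, 9.24 and 9.31 in CTX 4h arrays, against 9.68, 9.59 and 9.35 in native arrays (-0.48 ± 0.17, SE).

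The list was not uniform. The hyaluronan receptor and spindle gene Hmmr differed by -0.99, the kinesin gene Kif2c by -0.90 and the kinetochore motor gene Cenpe by -0.71. The mitotic kinase gene Cdk1 differed by -0.18, its cyclin gene Ccnb2 by -0.17, the survivin gene Birc5 by -0.20 and the centromeric histone gene Cenpa by -0.03. Treated array 8775 carried the lowest value of Plk1, Aurka, Tpx2, Hmmr, Kif2c, Cenpe, Cdk1 and Birc5 among the 12. Its mitosis score was -1.24, against -0.27 to 0.26 in the other 8 treated arrays and 0.22 to 0.50 in the native ones. Without array 8775 the median of the list was -0.34, and Plk1, Aurka and Tpx2 differed by -0.83, -0.85 and -0.74. In that array the macrophage score was 0.54, against -0.27 to 0.22 in the other treated arrays and -0.36 to 0.19 in native arrays. Its adipocyte score was 1.19, against 0.65 or less in the other treated arrays and 0.18 or less in native arrays. The part of these cells in the result was not tested.

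**Figure D2:**
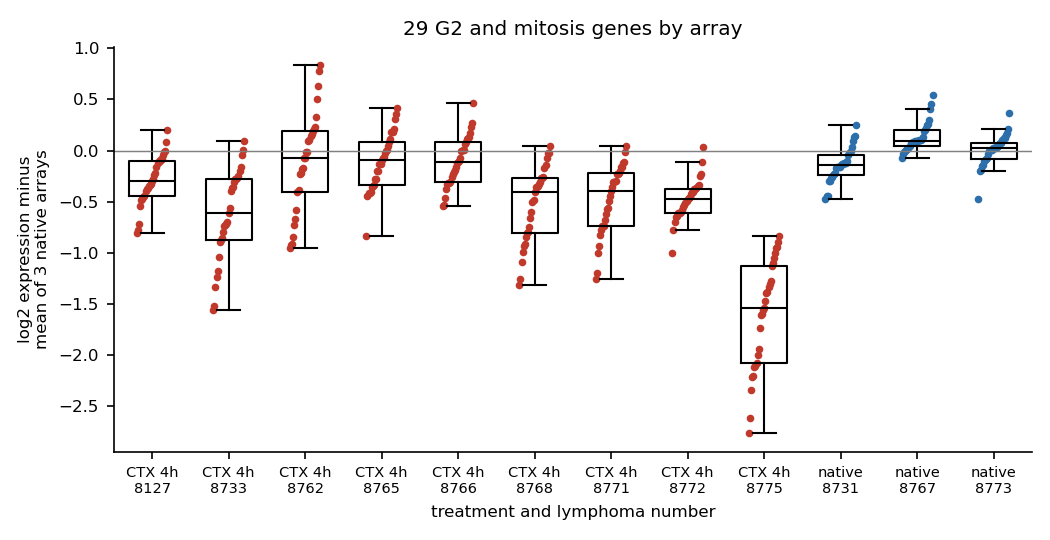
The 29 G2 and mitosis genes in each array, as log2 expression minus that gene's mean over the 3 native arrays (zero line). Each point is a gene, the box spans the quartiles with the median as a line, and whiskers show the range without outlying genes. CTX 4h array 8775 lies lowest, while treated arrays 8762, 8765 and 8766 have medians within the range of the native arrays.

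Promoters of late cell cycle genes usually carry CCAAT boxes, bound by NF-Y, and the cell cycle homology region TTTGAA, bound by the DREAM and MuvB complexes. The RefSeq windows (GRCm38.p6) of Plk1 and Hmmr, which had the largest and the third largest difference of the list, are shown with CCAAT and TTTGAA of either strand in capitals.
Plk1, chr7:122159185-122159484, plus strand: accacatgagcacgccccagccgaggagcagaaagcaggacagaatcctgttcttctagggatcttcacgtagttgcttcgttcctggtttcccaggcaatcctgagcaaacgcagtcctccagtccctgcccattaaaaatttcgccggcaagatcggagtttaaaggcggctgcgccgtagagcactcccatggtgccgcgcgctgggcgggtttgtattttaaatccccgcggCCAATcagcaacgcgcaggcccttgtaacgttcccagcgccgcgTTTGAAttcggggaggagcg
Hmmr, chr11:40733388-40733687, minus strand: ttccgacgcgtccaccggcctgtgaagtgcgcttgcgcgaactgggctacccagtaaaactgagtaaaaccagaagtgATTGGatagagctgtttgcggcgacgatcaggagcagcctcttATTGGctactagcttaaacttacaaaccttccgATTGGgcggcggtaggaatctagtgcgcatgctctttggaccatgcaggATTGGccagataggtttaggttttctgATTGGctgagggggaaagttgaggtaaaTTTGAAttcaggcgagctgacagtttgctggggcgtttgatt

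The window of Plk1 held 1 CCAAT and 1 TTTGAA, and that of Hmmr 5 CCAAT and 1 TTTGAA. Of the 29 genes of the list, 24 had a window. CCAAT occurred in 19 of them (79.2%) and in 41.1% of all genes, and TTTGAA in 18 (75.0%) and in 20.2% of all genes. Cenpa, with a difference near 0, also held 2 CCAAT and 1 TTTGAA.

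Genes of the preceding cell cycle phase had smaller differences, mostly of the other sign. Of 30 DNA replication genes, 25 were higher and 5 lower, with a median of 0.08, and none separated the groups. Pcna, the sliding clamp of DNA polymerase, read 12.42, 12.65 and 12.77 in CTX 4h arrays, against 12.46, 12.61 and 12.43 in native arrays (0.14 ± 0.09, SE). The helicase subunit gene Mcm4 differed by 0.26 ± 0.15 (SE) and the transcription factor gene E2f2 by 0.32 ± 0.15 (SE). The E2F site TTTGGCGC or TTTCGCGC stood in 8 of 25 windows of this list, against 0.929% of all genes.

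Of 28 DNA repair and checkpoint genes, 9 were higher and 19 lower, against 46.5% of all genes higher, and the median was -0.15. Chek2, the checkpoint kinase downstream of ATM, read 7.28, 7.47 and 7.95 in CTX 4h arrays, against 8.46, 8.08 and 8.13 in native arrays. It was the only gene of the list to separate the groups, where 0.948% of all genes did so downward. Its difference was -0.64 ± 0.16 (SE, adjusted p = 0.482, limma). The double-strand break mediators Trp53bp1 and Mdc1 differed by -0.43 ± 0.12 and -0.51 ± 0.15 (SE), each with 8 of 9 treated arrays below all native ones. Palb2, which links BRCA1 to BRCA2, differed by -0.29 ± 0.12 (SE).

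Heat shock genes, which encode chaperones under HSF1, had a median of -0.23, with 2 of 15 higher and 13 lower. Their scores overlapped, with 6 of 9 treated arrays below all native ones. Chordc1, a cochaperone of HSP90, read 8.25, 9.05 and 9.60 in CTX 4h arrays, against 9.77, 9.57 and 9.87 in native arrays (-0.81 ± 0.22, SE). The HSP110 gene Hsph1 read 8.88, 9.37 and 10.17 in CTX 4h arrays, against 9.59, 10.44 and 10.17 in native arrays (-0.66 ± 0.24, SE). The inducible HSP70 gene Hspa1a differed by 0.15. Cirbp, an RNA-binding protein that is induced by mild cold and is repressed by heat, differed the other way. It read 9.01, 9.94 and 10.94 in CTX 4h arrays, against 8.07, 8.51 and 8.70 in native arrays. The groups did not overlap, and the difference was 1.5 ± 0.35 (SE, adjusted p = 0.376, limma).

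Small RNA genes were higher in 26 of 28 cases, against 46.5% of all genes, with a median of 0.49. Of the 28, 6 separated the groups upward, against 0.396% of all genes. Most of the RNAs named here are small nucleolar RNAs, which guide chemical changes of ribosomal and spliceosomal RNA. Snora20, an H/ACA guide RNA, had the largest difference of all genes whose groups did not overlap. It read 9.16, 9.52 and 11.09 in CTX 4h arrays, against 8.15, 8.37 and 8.03 in native arrays, a difference of 1.59 ± 0.36 (SE, adjusted p = 0.36, limma). Snora31 read 10.16, 11.11 and 12.33 in CTX 4h arrays, against 9.82, 9.95 and 9.80 in native arrays (1.20 ± 0.38, SE), and Snora62 differed by 0.86 ± 0.21 (SE). The Y RNA genes Rny1 and Rny3, whose products do not act as such guides, differed by -0.31 and -0.26. Array 8762, which had the lowest mean correlation with the other arrays, carried the highest value of Snora20, Snora31 and Snora62 and a list score of 0.92, against -0.23 to 0.47 in the other treated arrays and -0.50 to -0.23 in native arrays. The part of RNA handling in this result was not tested. Without the 4 salivary arrays, 8762 among them, the median was 0.40.

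Chemokines and matrix genes differed by large but uneven amounts. Timp1, an inhibitor of metalloproteinases, read 6.51, 8.33 and 9.01 in CTX 4h arrays, against 6.70, 6.28 and 7.23 in native arrays (1.25 ± 0.48, SE). The monocyte chemokine gene Ccl7 read 8.09, 8.68 and 10.25 in CTX 4h arrays, against 8.25, 7.56 and 7.75 in native arrays (1.06 ± 0.40, SE). The neutrophil chemokine gene Cxcl2 differed by 0.97 ± 0.50 (SE), with values of 8.04 in array 8771 and 6.99 in array 8775 and 6.51 or less in the other 7 treated arrays, against 4.98 to 5.18 in native arrays. Of 20 secretory genes, 16 were higher and 4 lower, with a median of 0.39 and none separating the groups, and without array 8775 the median was 0.26. Interferon response genes were higher in 20 of 22 cases, with a median of 0.29. Their scores overlapped, with treated arrays 8768 and 8775 at 0.90 and 0.57 and the others at 0.11 or less, against -0.59 to 0.13 in native arrays.

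Markers of the cells that share the node were compared in the same way. Of 18 macrophage markers 14 were higher, with a median of 0.19. Cd14, the coreceptor for bacterial lipopolysaccharide, read 6.94, 7.54 and 8.22 in CTX 4h arrays, against 6.62, 6.35 and 6.65 in native arrays. It was the only macrophage marker to separate the groups, where 0.396% of all genes did so upward. Its difference was 0.99 ± 0.26 (SE, adjusted p = 0.482, limma), while the macrophage receptor genes Csf1r and Adgre1 differed by 0.05 and -0.07. Of 12 neutrophil markers 10 were lower, with a median of -0.43. Ltf, the granule protein lactoferrin, read 5.40, 6.56 and 7.63 in CTX 4h arrays, against 8.53, 7.52 and 7.30 in native arrays (-1.07 ± 0.39, SE). Of 15 T-cell and NK-cell markers 11 were lower, with a median of -0.29. The spread of these genes was wide in native lymphomas too, with Cd3g at 9.07, 6.68 and 10.54. Of 15 stromal and endothelial markers 11 were higher and 4 lower, with a median of 0.24 and none separating the groups. Among them the lymphatic gene Lyve1 differed by 0.89 ± 0.28 (SE). Pan-B-cell markers had a median of -0.18.

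**Figure D3:**
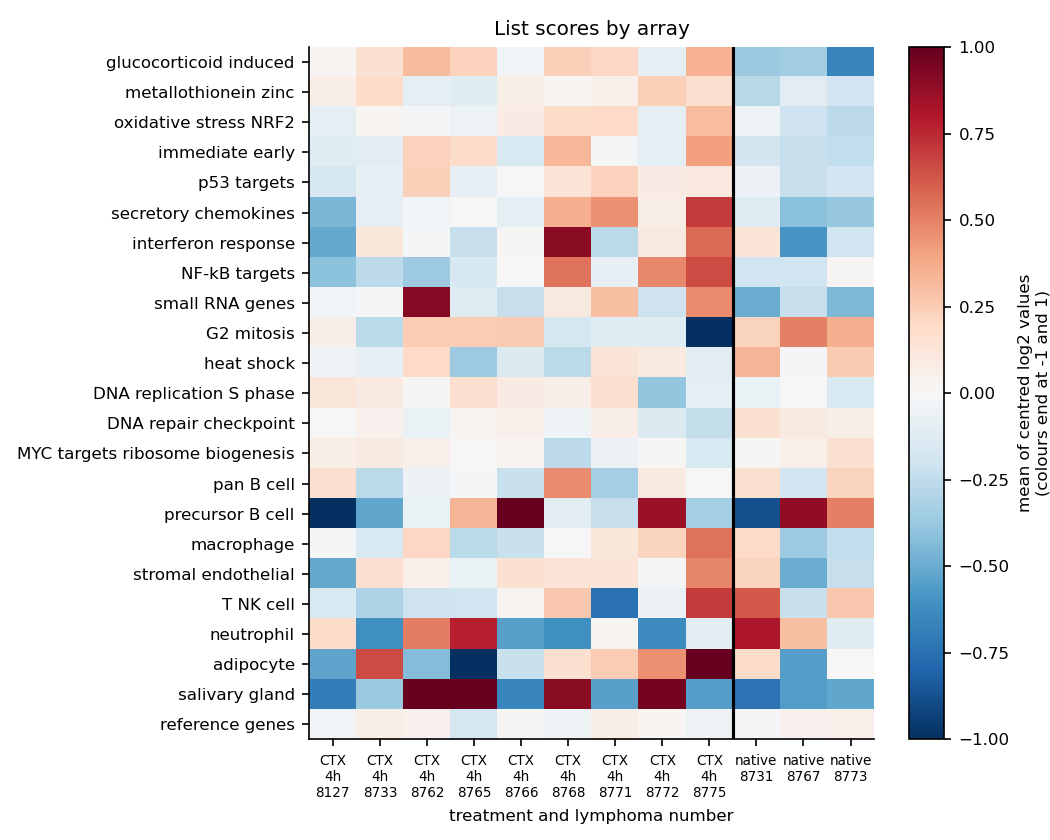
Scores of 23 gene lists (rows) in the 9 CTX 4h arrays (left of the line) and the 3 native arrays (right). A score is the mean over a list's genes of log2 expression centred on the 12 arrays, and colours end at -1 and 1. Glucocorticoid-induced, immediate early and small RNA scores lie above all native scores in every treated array, while salivary scores are high in 4 treated arrays only. The small RNA margin is minimal, with the lowest treated and the highest native score both at -0.23.

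Treated lymphomas differed widely in genes for secreted proteins of salivary glands. Bpifa2, the parotid secretory protein gene, read 12.28, 14.50, 13.49 and 14.26 in treated arrays 8762, 8765, 8768 and 8772 and between 6.47 and 9.19 in the other 5, against 6.74, 7.58 and 8.73 in native arrays. The salivary amylase gene Amy1 read 10.81, 11.84, 10.43 and 10.44 in those 4 arrays and between 6.26 and 7.64 in the other 5, against 6.80, 6.60 and 7.16 in native arrays. Of 14 salivary markers 12 were higher, with a median of 0.49. The score ran between 0.90 and 1.76 in those 4 arrays and between -0.69 and -0.37 in the other 5 treated ones, against -0.74 to -0.52 in native arrays. Without the 4 arrays, Bpifa2 differed by -0.23 and Smr3a, a submandibular gene, by -0.08. Mt2 and Hmox1 then differed by 1.48 and 1.66, and the mitosis median was -0.56. That median still includes treated array 8775, with a mitosis score of -1.24. It leaves out 8762 and 8765, at 0.25 each, and 8768 and 8772, at -0.17 and -0.12. The part of salivary tissue in these results was not tested.

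Precursor B-cell genes also differed widely from lymphoma to lymphoma in both groups. Rag1, which starts rearrangement of antigen receptor genes, read 10.40 and 10.78 in treated lymphomas 8766 and 8772 and between 5.34 and 8.27 in the other 7. Native lymphomas 8767 and 8773 read 10.42 and 10.03, and 8731 read 5.98. The surrogate light chain gene Igll1 read 11.05 and 10.75 in treated lymphomas 8765 and 8766 and 6.88 to 9.30 in the others, against 7.18, 8.69 and 7.36 in native ones. Ighm, the heavy chain of IgM, read 7.61, 7.94 and 11.73 in CTX 4h arrays, against 9.22, 8.48 and 10.81 in native arrays. The kinase gene Map3k15 read 11.61 in treated lymphoma 8772 and 11.58 in native lymphoma 8773, and between 5.73 and 7.87 in the other 10.

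Further higher genes were taken by smallest p from those whose groups did not overlap. Medag, known from adipocyte differentiation, read 6.44, 6.94 and 7.28 in CTX 4h arrays, against 6.27, 5.88 and 6.11 in native arrays (0.81 ± 0.16, SE). Tmem252 differed by 0.68 ± 0.11 (SE), the cytokine receptor subunit gene Il20rb by 0.38 ± 0.08 (SE), Btbd3 by 0.61 ± 0.13 (SE) and the dipeptidase gene Dpep2 by 0.58 ± 0.13 (SE).

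On the lower side, 12 genes were likewise taken by smallest p from those whose groups did not overlap. Rnf5, a ubiquitin ligase of the endoplasmic reticulum membrane, read 8.18, 8.60 and 8.95 in CTX 4h arrays, against 9.36, 9.48 and 9.29 in native arrays (-0.84 ± 0.15, SE, adjusted p = 0.302, limma). Spn, which encodes the leukocyte sialoglycoprotein CD43, read 8.05, 8.31 and 8.64 in CTX 4h arrays, against 8.96, 8.84 and 9.10 in native arrays (-0.66 ± 0.12, SE). Mettl3, the catalytic subunit of the RNA m6A methyltransferase, read 9.17, 9.33 and 10 in CTX 4h arrays, against 10.05, 10.15 and 10.29 in native arrays (-0.74 ± 0.15, SE, adjusted p = 0.302, limma). Array 8772 alone was close to the native range, and without it Mettl3 had an adjusted p of 0.0415 (limma).

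Dctd, which makes dUMP for thymidine synthesis, read 9.27, 9.81 and 10.28 in CTX 4h arrays, against 10.78, 10.54 and 10.75 in native arrays (-0.88 ± 0.17, SE). The tRNA deaminase gene Adat1 differed by -0.88 ± 0.18 (SE) and the DNA ligase gene Lig3 by -0.46 ± 0.09 (SE). Ice2, a subunit of the elongation complex for small nuclear RNA genes, differed by -0.52 ± 0.10 (SE). The other genes of this rank were the prenylcysteine oxidase-like gene Pcyox1l (-0.85 ± 0.17, SE), the cargo lectin gene Lman2l (-0.74 ± 0.15, SE), the gamma-tubulin complex gene Tubgcp4 (-0.61 ± 0.12, SE), the ciliary gene Rpgrip1l (-0.52 ± 0.10, SE) and the peroxisome gene Pex6 (-0.48 ± 0.10, SE).

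The remaining arrays of the series share no array with these 12 and also hold lymphomas labelled CTX 4h and native. The labels give the dose of 300 mg/kg for the treated arrays of 100 ng, and none for those of 300 ng. They are 6 CTX 4h against 7 native arrays with numbers starting with 1, 14 against 5 with numbers starting with 9, and 2 against 17 labelled from 300 ng of RNA. Of the 79 genes higher in every treated array here, 65 (82.3%) had a positive difference in numbers starting with 1, 55 (69.6%) in numbers starting with 9 and 62 (78.5%) in the 300 ng arrays. Over all genes the shares were 50.9%, 51.8% and 39.2%. Of the 189 lower genes, 175 (92.6%), 92 (48.7%) and 164 (86.8%) had a negative difference there, against 49.1%, 48.2% and 60.8% of all genes. In numbers starting with 9 the share of the lower genes was thus close to that of all genes. Across all 19938 genes, which are not independent replicates, the log2 fold changes correlated with those here at r = 0.48 (rho = 0.40), 0.20 (0.08) and 0.29 (0.26) in the same order.

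**Figure D4:**
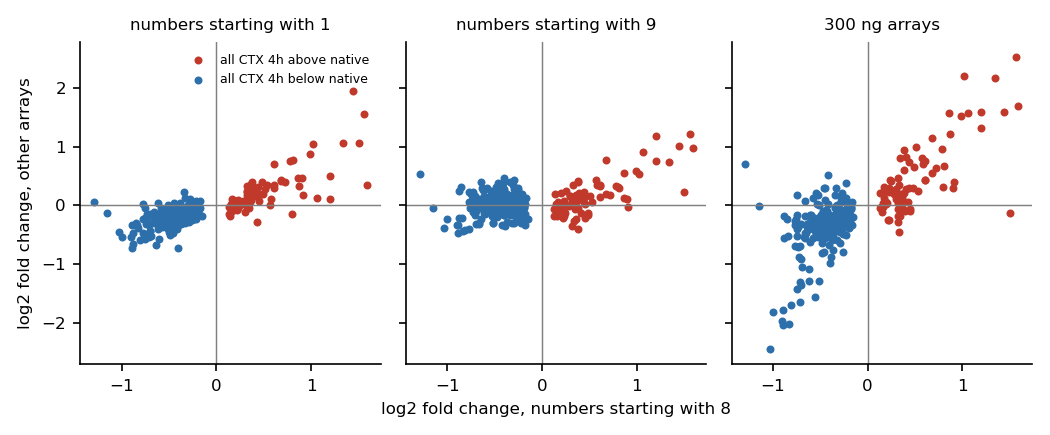
Log2 fold changes, CTX 4h minus native, of the 268 genes whose groups did not overlap. Horizontal axes show the 100 ng arrays with numbers starting with 8, and vertical axes 3 disjoint sets of arrays. The 300 ng arrays have numbers starting with 8 or 9. Red points are the 79 higher genes and blue points the 189 lower ones. The red points lie mostly above 0 in each panel, and the blue points lie mostly below 0 except in numbers starting with 9, where 48.7% do.

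Mt2, Hmox1 and Slc30a1 had higher CTX 4h means in each set. The groups of Mt2 overlapped in every other set. Those of Hmox1 overlapped in numbers starting with 1 and 9, and those of Slc30a1 in numbers starting with 9. The metallothionein and zinc list had medians of 0.05 here and 0.13, 0.01 and 0.09 in numbers starting with 1, numbers starting with 9 and the 300 ng arrays. Mt2 differed by 1.44 here, and by 1.95 ± 0.53, 1.01 ± 0.52 and 1.59 ± 0.82 (SE) in numbers starting with 1, numbers starting with 9 and the 300 ng arrays. In the same order Hmox1 differed by 1.56 here, and by 1.56 ± 0.28, 1.22 ± 0.53 and 2.53 ± 0.30 (SE). Slc30a1 differed by 0.78 here, and by 0.75 ± 0.14, 0.33 ± 0.16 and 0.97 ± 0.17 (SE). The glucocorticoid list had medians of 0.58 here and 0.48, 0.34 and 0.51 in the other sets. Zbtb16, a member of that list, differed by 0.90 here, and by 0.47 ± 0.32, 0.10 ± 0.41 and 0.30 ± 0.71 (SE). Its groups overlapped in each of the other sets. The mitosis list had medians of -0.46 here and -0.21, -0.12 and -1.33 there. Of its 29 genes, 0 were higher in CTX 4h here, 2 in numbers starting with 1, 14 in numbers starting with 9 and 0 in the 300 ng arrays. Cirbp differed by 1.5 here, and by 1.06 ± 0.23, 0.23 ± 0.27 and -0.13 ± 0.37 (SE). Mettl3 differed by -0.74 here, and by -0.5 ± 0.14, 0.07 ± 0.21 and -0.53 ± 0.24 (SE). The heat shock list had medians of -0.23 here and -0.14, 0.31 and -0.18 there. Of its 15 genes, 2 were higher in CTX 4h here, and 4, 15 and 4 there. The DNA repair list had medians of -0.15 here and -0.15, 0.13 and -0.31 there. Of its 28 genes, 9 were higher here, and 5, 21 and 2 there. Neutrophil markers differed in sign between the sets, with a median of -0.43 here and 0.57, -0.23 and 0.66 there, and Ltf differed by -1.07 here and by 0.65, -0.21 and -0.03 there.

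**Figure D5:**
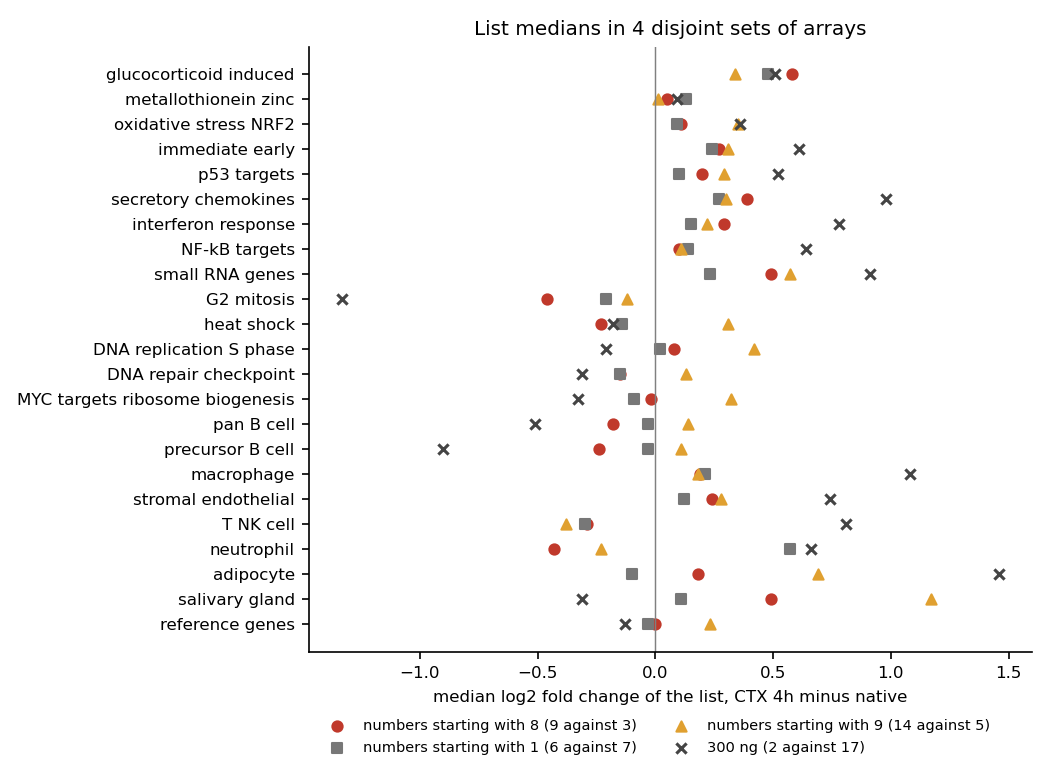
Median log2 fold change, CTX 4h minus native, of 23 gene lists in 4 sets of arrays that share no array. Red circles, grey squares and orange triangles are the 100 ng arrays with numbers starting with 8, 1 and 9. Crosses are the 300 ng arrays, with numbers starting with 8 or 9. The glucocorticoid medians lie between 0.34 and 0.58 and the mitosis medians between -1.33 and -0.12, while neutrophil medians stand on both sides of 0.

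Whether a difference was particular to these lymphomas was tested against the mean of the other 100 ng sets in 1 model of the 44 arrays. No gene passed (0%, 0 of 19938), the smallest adjusted p was 1, and 212 genes (1.06%) had an unadjusted limma p under 0.05. The smallest p belonged to Mus81, a nuclease that cuts stalled replication forks and crosslink intermediates. It read 6.62, 7.33 and 7.69 in CTX 4h arrays, against 8.09, 8.08 and 7.92 in native arrays, a difference of -0.77 ± 0.17 (SE). In numbers starting with 1 and 9 Mus81 differed by -0.24 ± 0.11 and 0.22 ± 0.12 (SE), and the test of the difference gave -0.76 ± 0.17 (SE, adjusted p = 1, limma). With the spread taken from all 63 arrays, Mus81 alone passed the comparison of CTX 4h with native, at an adjusted p of 0.0404 (limma). The next were Zswim3, Pcyox1l, the cytochrome oxidase assembly gene Coa3, the neurofilament gene Nefh and the glycosyltransferase gene Galnt2, whose differences from the other sets were -0.58 ± 0.14, -0.85 ± 0.23, -0.77 ± 0.23, -1.58 ± 0.48 and -0.61 ± 0.19 (SE). For Mt2, Hmox1 and Plk1 that difference was -0.04 ± 0.70, 0.16 ± 0.63 and -0.60 ± 0.55 (SE).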

How the data were processed

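RNA from unpurified lymph node cells was hybridised to 1-colour expression arrays. The authors deposited log2 values, which per the submitters' processing notes came from RMA in Partek 6.5. Background correction and summarisation were taken over as deposited, and no depth applies to arrays: the number of arrays limits the precision. Of 35557 probe sets, 21789 had 1 gene symbol, 1621 several and 12147 none; the probe set with the highest mean over the 63 arrays stood for each of 19938 genes. Of the 21789, 21698 matched RefSeq (GRCm38.p6). The 9 CTX 4h and 3 native arrays were compared with limma 3.58.1 (R 4.3.3; lmFit, eBayes, Benjamini-Hochberg over all genes, threshold 0.05), and the difference from other 100 ng arrays by a contrast of cell means over 44 arrays. The code was tested on simulated data. No 2 of the 12 arrays correlated above 0.991.

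Members and gene lists were chosen with earlier results of these data known. Named genes were the 12 of smallest p per direction among genes without overlap, up to 4 per list, 17 preset genes, the 6 smallest p of the difference and the 10 largest SDs over treated arrays. Further list members were named after their values were seen. Alternatives covered the spread estimate, normalization, probe set choice, filters, weights and left-out arrays. Genes without a single-symbol probe set, among them Cdkn1a and Trp53, were not analysed here. Figures were drawn with matplotlib 3.10.9.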

Additional observations from a re-analysis of the deposited data

Results flagged for a closer look

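Among 174 named genes, 11 had 1 of the 9 CTX 4h arrays far from the other 8, by Dixon's ratio of the gap to the range (critical value 0.493). Chance flags about 1 in 20 groups, so many of the 11 can be chance flags. The 174 also include the 10 genes with the largest SDs over these same treated arrays. Array 8775 was highest for Clec9a (ratio 0.70), a dendritic cell receptor, at 6.75 with the next array at 6.06. It was also highest for Fcer2a (0.54), at 8.25 with the next at 6.94, and for Cd68 (0.51), at 11.28 with the next at 10.90. The same array was lowest for Plk1 (0.58), at 8.48 with the next at 9.84. Array 8772 was highest for Mettl3 (0.57), at 10 with the next at 9.53, for Map3k15 (0.64), at 11.61 with the next at 7.87, and for Zswim3 (0.54), at 7.21 with the next at 6.88. Array 8762 was lowest for the catalase gene Cat (0.76), at 11.07 with the next at 11.69. Array 8127 was lowest for Vldlr (0.53), at 6.20, and for Pdpn (0.56), at 7.84. Array 8733 was highest for Mxd4 (0.57), a MAX partner gene, at 10.79 with the next at 10.12.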

How the results depend on the processing

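The limma comparison called 0 genes higher under every alternative. It called 1 gene lower with cell means over 63 arrays (Mus81, -0.77, adjusted p = 0.0404) and 1 without CTX 4h replicate 8, lymphoma 8772 (Mettl3, -0.82, adjusted p = 0.0415), and 0 otherwise. The difference from the other 100 ng arrays called 0 throughout. Genes without overlap numbered 79 higher and 189 lower. Leaving out 1 array gave 88 to 303 higher and 210 to 558 lower, as fewer arrays overlap less. Without the 4 salivary arrays, an alternative chosen after seeing the data, they were 304 and 612, and 39 were higher among genes above the median level.

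With 1 array left out, list medians ran from -0.52 to -0.34 for G2 and mitosis, 0.53 to 0.67 for glucocorticoid, 0.22 to 0.34 for immediate early, 0.13 to 0.28 for p53 targets, 0.02 to 0.12 for metallothionein and zinc, 0.08 to 0.15 for oxidative stress, 0.38 to 0.59 for small RNA and 0.26 to 0.51 for secretory genes. The metallothionein and zinc median was 0.22 for genes above the median level.

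Of 3785 values of named genes under another setting, 3765 kept sign and side, 2 passed the threshold and 18, of 12 genes, reversed. With 1 array left out, the range crossed 0 or reached it for Mlxip (0 to 0.43), Cd209a (-1.21 to 0.01), Xcr1 (-0.49 to 0.11), Siglech (-0.75 to 0.21), Clec9a (-0.45 to 0.11), Myc (-0.07 to 0.02), Cdkn2a (-0.62 to 0.72), Map3k15 (-1.88 to 0.9) and 1700048O20Rik (-1.23 to 0.88). Without the salivary arrays Myc gave 0.03, Bpifa2 -0.23, Smr3a -0.08 and 2310057J18Rik -0.13. The cause was not tested. No paired analysis was possible because each array has its own lymphoma number and the labels pair none.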
